A study of Mus musculus with 2 samples.

Results

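The cells described here were the sinusoidal endothelial cells of mouse livers injured with carbon tetrachloride, found among cells prepared to isolate hepatic stellate cells. They were selected on measured values in both libraries. Barcodes were kept with at most 5% mitochondrial UMIs (unique molecular identifiers, each counting 1 captured RNA molecule), 2000 to 7000 detected genes and at most 50000 UMIs. A kept cell was called endothelial when Kdr, Stab2 and Ptprb together held at least 8 of every 10000 UMIs, and the stellate genes Lrat, Ecm1, Hgf and Reln together held fewer than 15. This gave 723 endothelial cells among 16420 kept cells. The p16-LRTD library held 435 of 9004 (4.83%, 95% exact binomial interval 4.40 to 5.29), and the p16-Alb-LRTD library held 288 of 7416 (3.88%, 3.46 to 4.35). Endothelial cells entered a preparation that was enriched for stellate cells, so these shares describe the preparation and not the liver.

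Both groups were male mice on a C57BL/6 background that carried p16-CreERT2 and the R26-CAG-LSL-RSR-tdTomato-2A-DTR allele. Expression of tdTomato and of the diphtheria toxin receptor from this allele needs both Cre and Dre recombinase. The p16-Alb-LRTD mice also carried Alb-DreERT2, which is expressed in hepatocytes, so that hepatocytes with high p16 were labelled and could be eliminated by diphtheria toxin. The p16-LRTD mice lacked the Dre allele and were the controls. All mice received carbon tetrachloride, tamoxifen and diphtheria toxin over 4 weeks, after which cells were released by pronase and collagenase perfusion, enriched on a Nycodenz gradient and sequenced as single cells. The ages of the mice and the number pooled into a library were not given in the sources used here. Each genotype was represented by 1 library, so no difference between the genotypes had a replicate check and no test was made. The intervals below cover counting error within a library only, and genotype, mouse and preparation cannot be told apart.

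Sinusoidal endothelial cells line the hepatic capillaries with a fenestrated, discontinuous wall that lacks a continuous basement membrane, and they clear macromolecules from blood through scavenger receptors. Their expression differs along the lobule: cells near the central vein release the Wnt ligands and R-spondin that pattern the neighbouring hepatocytes, while cells near the portal tract express more of the arterial and Notch genes. In chronic injury they are known to lose sinusoidal features and gain those of continuous capillaries.

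The selected cells carried the sinusoidal programme. Over 11 markers that the selection did not use, the summed level was 12327 CPM (the share of the summed UMIs, scaled to a total of 1000000) in the p16-LRTD library and 12195 CPM in the p16-Alb-LRTD library, with single markers between 604 and 1990 CPM. The same markers summed to 58.8 and 38.3 CPM in stellate-gated cells and to 1464 and 1867 CPM in macrophage-gated cells. Gpr182, an atypical chemokine receptor of sinusoidal endothelium, was at 1397 CPM in the p16-LRTD library and 1077 CPM in the p16-Alb-LRTD library. At least 1 UMI of Gpr182 was present in 99.8% and 99.3% of the cells. The 9 large-vessel markers summed to 149 and 142 CPM, and the 5 lymphatic markers, of which Reln was part of the selection, to 38.7 and 34.9 CPM. In stellate-gated cells the large-vessel sum was 843 and 799 CPM, with Plac8 alone at 675.5 and 663.2 CPM. Single large-vessel markers went opposite ways in endothelial cells, such as Selp at 2.54 and 39.3 CPM and Gja5 at 6.19 and 0.24 CPM. Of the genes that chose the cells, Kdr, the main receptor for VEGF-A, was at 2461 and 2213 CPM. Stab2, a hyaluronan scavenger receptor, was at 3533 and 3532 CPM, and Ptprb, the vascular endothelial phosphatase, was at 3248 and 3947 CPM. The selection threshold was far from most cells, with medians of 97.2 and 98.5 UMIs of the 3 genes per 10000. Only 4 and 3 members lay between 8 and 20 per 10000, and there the 4 unused markers Gpr182, Lyve1, Clec4g and Fcgr2b had medians of 12.3 and 1.81 per 10000, against 54.3 and 49.5 over all members. Just outside, 10 and 5 cells lay between 4 and 8 per 10000, with a median of 0 for the same markers.

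**Figure D1:**
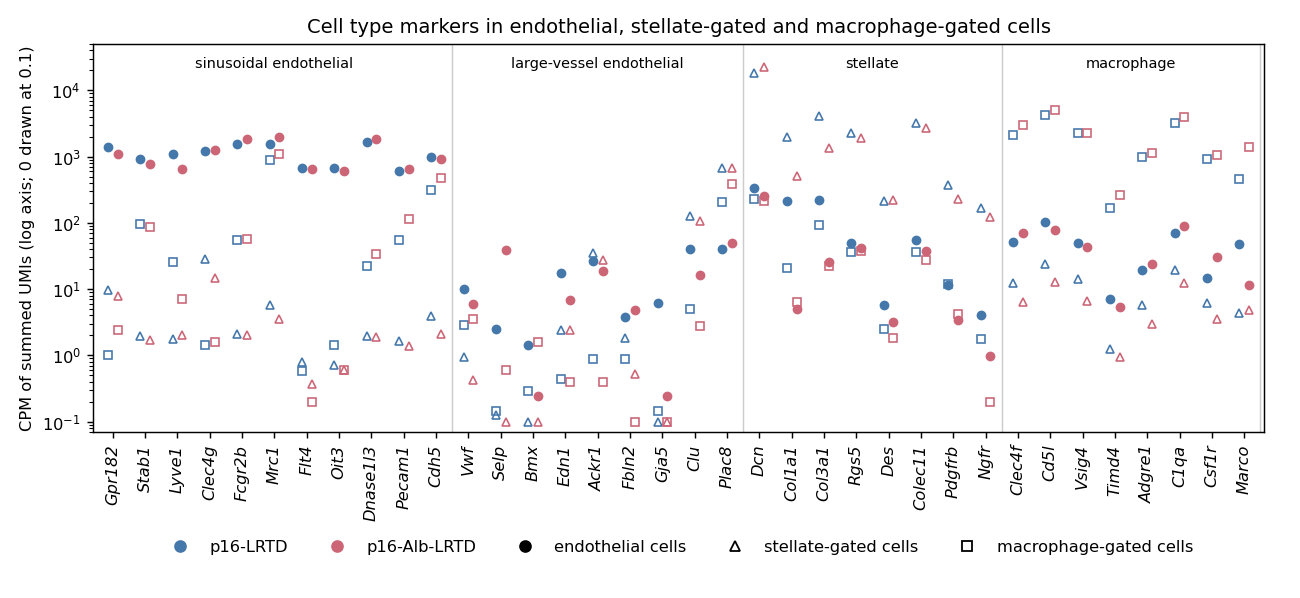
Levels of cell type markers, as CPM of summed UMIs on a log axis with 0 drawn at 0.1, in endothelial cells (filled circles), stellate-gated cells (triangles) and macrophage-gated cells (squares) of p16-LRTD (blue) and p16-Alb-LRTD (red). Each of the 11 sinusoidal markers lay between 604 and 1990 CPM in endothelial cells of both libraries, while the stellate and macrophage markers lay far lower there than in their own cells.

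Depth was alike in the 2 groups of cells, with medians of 11906 and 12075 UMIs and of 4028 and 3955 genes per cell, and the endothelial cells summed to 6303857 and 4126283 UMIs. The libraries shared 95 of their 11149 and 8806 barcodes, and 1 endothelial cell of each library carried such a barcode. A further 180 and 197 cells passed the endothelial and the stellate gate together and were left out. Transcripts of other cells were present at low levels. The 8 stellate markers not used in the selection summed to 887 and 374 CPM, compared with 30651 and 29221 CPM in stellate-gated cells, and 1 p16-LRTD cell held 74.4% of the endothelial Col1a1 UMIs. The 8 macrophage markers summed to 362 and 352 CPM, compared with 14309 and 17990 CPM in macrophage-gated cells, and 22 and 16 endothelial cells held at least 2 such UMIs per 10000. The hepatocyte markers summed to 117 and 154 CPM. tdTomato was at 15 and 18 UMIs over all endothelial cells (2.38 and 4.36 CPM), beside 3.1 and 5.87 CPM in stellate-gated cells.

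The genotypes were compared on 8592 genes with a mean of at least 10 CPM in endothelial cells. Of these, 3522 were higher and 5070 lower in p16-Alb-LRTD, so that most genes stood on the lower side, and the counts of list members below are to be read against this. The median log2 ratio of p16-Alb-LRTD over p16-LRTD was -0.08 over all of them, and the median half-width of the counting interval was 0.27. At least 2-fold higher in p16-Alb-LRTD were 149 genes (1.73%), and at least 2-fold lower were 221 genes (2.57%). Thus 40.3% of the 2-fold genes were on the higher side; with TMM scaling the counts were 180 and 177 (50.4% higher), and with median-of-ratios scaling 184 and 172 (51.7% higher). These scalings moved the median of all genes to -0.005 and 0.007, and they turned the sign of list members just below 0: Flt4, Nrp2, Notch1, Nr2f2, Zeb2, Tap2, Jak2, Pcna and Tfpi are counted as lower below and were higher under both. Of 22 gene lists, the pericentral list stood highest, with a median of 1.75, followed by the immediate early, glucocorticoid and interferon-stimulated lists. At the other end stood the capillary and basement membrane list (-0.80), the cell division list (-0.78) and the Notch pathway (-0.63).

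**Figure D2:**
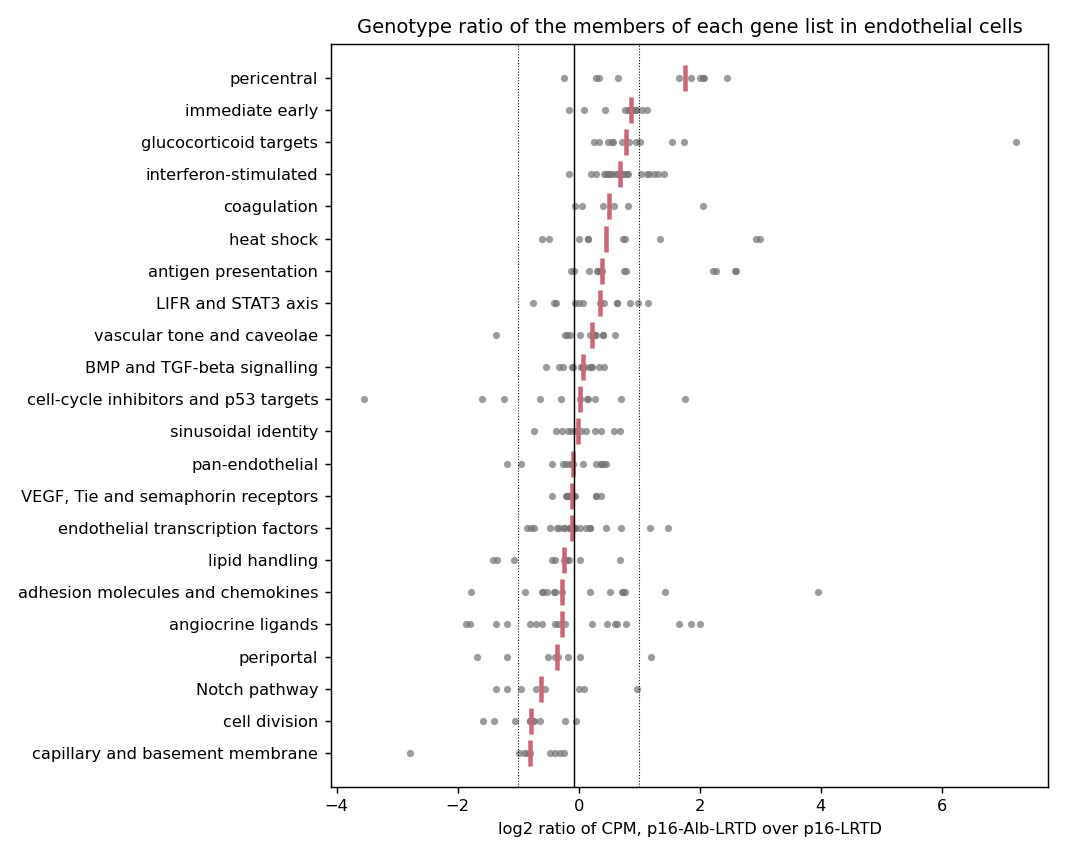
Log2 ratio of CPM, p16-Alb-LRTD over p16-LRTD, in endothelial cells for each member of 22 gene lists with a mean of at least 10 CPM (grey points), with the list median (red bar), the median over all genes tested (solid line, -0.08) and the 2-fold limits (dotted lines). The pericentral list has its median at 1.75, beyond the 2-fold limit, and the capillary and basement membrane list has every measured member below 0.

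Genes of the central-vein end of the sinusoid were higher in p16-Alb-LRTD. Of 10 pericentral genes, all of which reached 10 CPM, 9 were higher and 1 was lower, and 6 were at least 2-fold higher. In stellate-gated cells only Rspo3, Thbd and Dkk3 reached the minimum, with a median of 0.12. Wnt2 (chr6:17988940-18030585, minus strand), a Wnt ligand that endothelial cells release to hepatocytes, was at 94.7 CPM in the p16-LRTD library and 299 CPM in the p16-Alb-LRTD library (log2 ratio 1.66, interval 1.52 to 1.80). It was close to absent from stellate-gated cells, at 0.22 and 0.41 CPM, and from macrophage-gated cells. Wnt9b, the other central-vein Wnt, was at 5.08 and 20.4 CPM (log2 ratio 2.0, 1.40 to 2.64). Rspo3, which amplifies Wnt signals at the hepatocyte surface, was at 18.4 and 66.4 CPM (1.85, 1.53 to 2.18). Stellate cells express much more Rspo3, 604 and 728 CPM. At the median carry-over of stellate genes into endothelial cells, 2.56% and 1.41% of the stellate level, Rspo3 would stand at 15.5 and 10.2 CPM, so the p16-LRTD value was near that level and the p16-Alb-LRTD value was above it.

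Thbd and Cdh13, on the cell membrane, differed by a like amount. Thbd (chr2:148404466-148408188), the thrombin receptor that activates protein C, was at 69.6 CPM in the p16-LRTD library and 289 CPM in the p16-Alb-LRTD library (log2 ratio 2.05, interval 1.89 to 2.21). Cdh13 (chr8:118283733-119324921), a cadherin anchored by a lipid tail, was at 113 and 476 CPM (2.08, 1.95 to 2.20), and below 1 CPM in stellate-gated and macrophage-gated cells. Dkk3, a secreted protein of the Dickkopf family, was at 6.35 and 34.7 CPM, beside 58.6 and 63.5 CPM in stellate-gated cells. The remaining members were closer between the libraries. Kit, the stem cell factor receptor, was at 214 and 334 CPM (0.65), and Ptgs1, cyclooxygenase 1, at 175 and 214 CPM (0.29). The interval of the transcription factor Lhx6 included 0 (22.4 and 28.4 CPM, log2 ratio 0.34, -0.02 to 0.71). Fabp4, a fatty acid binding protein, was the member that was lower, at 1094 and 920 CPM (-0.25).

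Genes of the portal end were mixed. Of 8 periportal genes, 6 were lower and 2 higher in p16-Alb-LRTD, and the median was -0.36. Dll4 (chr2:119325784-119335962), a Notch ligand of arterial endothelium, was at 195 CPM in the p16-LRTD library and 85.8 CPM in the p16-Alb-LRTD library (-1.19, -1.36 to -1.01). Adgrg6, an adhesion G protein-coupled receptor, was at 60.1 and 18.7 CPM (-1.69, -2.06 to -1.33). The scavenger receptor Msr1 was at 426 and 299 CPM, the latent TGF-beta binding protein Ltbp4 at 358 and 273 CPM, and the ephrins Efnb1 at 240.3 and 190.2 CPM and Efnb2 at 153 and 136 CPM. The netrin Ntn4 was at 438 and 443 CPM. Adam23, a disintegrin-family membrane protein without protease activity, went the other way: it was at 810.3 and 1851 CPM (1.19, 1.14 to 1.24), and at 71.2 and 43.0 CPM in stellate-gated cells.

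The ligands that endothelial cells send to neighbouring cells therefore did not share a direction. Of 20 such genes, 18 reached 10 CPM; 8 were higher, 3 of them at least 2-fold (the Wnt ligands and Rspo3 above) and 1 of them Hgf, which the selection capped, and 10 were lower, 4 of them at least 2-fold. Pdgfb, the growth factor that acts on stellate cells and pericytes, was at 84.2 CPM in the p16-LRTD library and 23.3 CPM in the p16-Alb-LRTD library (log2 ratio -1.86, interval -2.19 to -1.54). Vegfc, a ligand of VEGF receptor 3, was at 103 and 29.6 CPM (-1.80, -2.10 to -1.52). In stellate-gated cells Vegfc was at 282 and 295 CPM. Edn1, the vasoconstrictor endothelin 1, was at 17.5 and 6.79 CPM, with 29.1% and 35.7% of its UMIs in 1 cell of each library. Bmp2 and Bmp6 are the endothelial signals that induce hepcidin in hepatocytes. Bmp2 was at 1385 and 2106 CPM (0.60), and Bmp6 at 570.4 and 787 CPM (0.46). Gas6, the ligand of the TAM receptors, was at 154 and 264 CPM (0.77). Tgfb1 was at 241 and 190.0 CPM, and Angpt2, the Tie2 antagonist, at 54.9 and 31.5 CPM.

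Cells with Selp held part of these values. The following split was chosen after the values were seen. At least 1 UMI of Selp, the P-selectin of venular endothelium, was present in 9 of 435 cells of p16-LRTD (2.07%, 0.950 to 3.89) and in 33 of 288 cells of p16-Alb-LRTD (11.5%, 8.02 to 15.7). At an equal 5000 UMIs per cell the counts were 1 of 423 (0.24%) and 17 of 288 (5.90%). The Selp-positive cells were deeper than the rest, with medians of 19149 against 11781 UMIs in p16-LRTD and 14886 against 11757 in p16-Alb-LRTD. In p16-Alb-LRTD these 33 cells held 205 of the 274 Rspo3 UMIs, and 1 cell held 21.5% of them (22.4% in p16-LRTD). Their Rspo3 level was 350 CPM, against 19.5 CPM in the remaining cells of that library and 18.1 CPM in the Selp-negative cells of p16-LRTD. The higher Rspo3 level of p16-Alb-LRTD thus lay almost wholly in Selp-positive cells. Wnt9b was at 68.4 CPM in Selp-positive and 12.4 CPM in Selp-negative cells of p16-Alb-LRTD, and Lhx6 at 71.8 and 21.2 CPM. Cdh13 and Thbd were higher in Selp-positive cells too, at 1036 against 383 CPM and 480 against 257 CPM, but their levels in Selp-negative cells also stood above those of the whole p16-LRTD library. The 9 Selp-positive cells of p16-LRTD held too few UMIs of Rspo3 (5) and Wnt9b (1) to compare with Selp-negative cells there. Both genes were lower in these 9 cells than in the Selp-positive cells of p16-Alb-LRTD. Rspo3 was at 28.7 CPM (9.33 to 67.05) against 350 CPM (304 to 402). Wnt9b was at 5.75 CPM (0.15 to 32.0) against 68.4 CPM (48.8 to 93.1). Compared with Selp-negative cells of p16-LRTD, the 9 cells held less Cdh13, at 63.2 against 114 CPM, and more Thbd, at 144 against 67.5 CPM. Of genes that the selection did not use, the Selp-positive cells of p16-Alb-LRTD held Gpr182 at 858 CPM against 1113 CPM in the remaining cells, and Lyve1 at 525 against 678 CPM, so both were lower in them.

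A further group of cells was marked by Adgrg6, of the periportal list, and was also chosen after the values were seen. At least 3 Adgrg6 UMIs were present in 32 of 435 cells of p16-LRTD (7.36%, 5.09 to 10.2) and in 7 of 288 cells of p16-Alb-LRTD (2.43%, 0.983 to 4.94). In p16-LRTD these cells held Mecom, a transcription factor of arterial endothelium, at 1433 CPM against 95.5 CPM in cells with no Adgrg6 UMI. Vegfc was at 626 against 56.3 CPM, the transporter Slc45a4 at 296 against 34.7 CPM, and von Willebrand factor (Vwf) at 140 against 0.72 CPM. The 7 cells of p16-Alb-LRTD showed the same genes, with Mecom at 2670 against 61.6 CPM, Vegfc at 379 against 20.6 CPM and Vwf at 162 against 4.18 CPM. Stab2, one of the genes that chose the cells, was at 1763 against 3678 CPM in p16-LRTD and at 1552 against 3579 CPM in p16-Alb-LRTD. Gpr182, which the selection did not use, was at 1352 against 1390 CPM and at 1263 against 1061 CPM. Lyve1, also not used, was lower in the Adgrg6 cells, at 808.9 against 1116 CPM in p16-LRTD and 180.4 against 677.3 CPM in p16-Alb-LRTD. Cd34, a marker of continuous capillaries, was higher in them, at 127.7 against 30.15 CPM and 108.3 against 18.02 CPM. The 7 cells of p16-Alb-LRTD held only 10 UMIs of Lyve1 and 6 of Cd34. The pericentral list was split in the Adgrg6 cells of p16-LRTD. Rspo3 was higher, at 80.1 against 14.4 CPM, and so was Cdh13, at 198 against 110.1 CPM, while Wnt2 was at 57.6 against 100.2 CPM and Thbd at 52.6 against 72.8 CPM. In cells with no Adgrg6 UMI, Vegfc was still higher in p16-LRTD than in p16-Alb-LRTD.

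Genes of capillary endothelium and basement membrane were lower in p16-Alb-LRTD. Of 14 list members, 9 reached 10 CPM, and all 9 were lower, with a median log2 ratio of -0.80 and 1 at least 2-fold lower. In stellate-gated cells the median was -0.45 over the 7 members that reached the minimum there. Esm1 (chr13:113209659-113218098), the endocan of activated and tip endothelium, was at 383 CPM in the p16-LRTD library and 55.5 CPM in the p16-Alb-LRTD library (-2.79, interval -2.99 to -2.59). It was below 1 CPM in stellate-gated and macrophage-gated cells. The collagen IV chains of the basement membrane were at 983 and 528 CPM for Col4a1 (-0.90, -0.97 to -0.83) and at 432 and 238 CPM for Col4a2. Both chains are also stellate products, with Col4a1 at 1297 and 915 CPM in stellate-gated cells. Nidogen 1 (Nid1) was at 345 and 247 CPM, perlecan (Hspg2) at 752 and 576 CPM, laminin alpha 4 (Lama4) at 317 and 255 CPM, and the fenestral diaphragm protein Plvap at 189 and 159 CPM. Plvap was at 2230 and 2028 CPM in stellate-gated cells. The median carry-over would give 57.1 and 28.6 CPM of it, about the size of its difference. For Col4a1 the median carry-over would be 33.2 and 12.9 CPM. Over single stellate markers the carry-over ranged from 1.735% to 10.8% in p16-LRTD and from 0.78% to 2.18% in p16-Alb-LRTD. The source of the Plvap difference was not tested. Cd34, a marker of continuous capillaries, was at 37.4 and 18.9 CPM (-0.99). Below the minimum, Apln, the tip-cell peptide apelin, had 97 UMIs (15.4 CPM) in p16-LRTD and none in p16-Alb-LRTD, at least 21.2-fold lower against a floor of 3 counts in the library.

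The Notch pathway, to which the ligand Dll4 belongs, restrains sprouting and sets arterial identity. Of its 12 members 8 reached 10 CPM, 6 were lower and 2 higher in p16-Alb-LRTD, and 2 were at least 2-fold lower. Nrarp, a target that feeds back on the pathway, was at 105 CPM in the p16-LRTD library and 40.5 CPM in the p16-Alb-LRTD library (log2 ratio -1.37, -1.63 to -1.12), with almost none in other cells. Hes1, a repressor that Notch induces, was at 520.0 and 268 CPM (-0.96, -1.06 to -0.86), whereas in stellate-gated cells it was at 195 and 329 CPM. Jag1 was at 31.1 and 19.2 CPM and the receptor Notch4 at 49.3 and 33.7 CPM. The receptor Notch1 was level, at 406 and 405 CPM, and the glycosyltransferase Lfng, which tunes ligand choice, was at 24.4 and 47.7 CPM (0.97). The VEGF, Tie and semaphorin receptors were close between the libraries: 7 of 10 were lower, 3 higher and none 2-fold different, with a median of -0.11. Kdr and Ptprb, which chose the cells, are counted among them. The largest difference among them was in the VEGF and semaphorin co-receptor Nrp1, at 1887 and 1386 CPM (-0.45).

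The sinusoidal identity list was close to level. Of its 12 members 6 were higher and 6 lower, none by 2-fold, and the median was -0.01; with TMM or median-of-ratios scaling it was 0.06 or 0.08. The hyaluronan receptor Lyve1 was at 1096 CPM in the p16-LRTD library and 656 CPM in the p16-Alb-LRTD library (-0.74, -0.81 to -0.68). Clec1b, a C-type lectin that binds podoplanin, was at 143 and 230 CPM (0.68), in contrast, and F8, the coagulation factor made by these cells, at 848 and 1266 CPM (0.58). The mannose receptor Mrc1 was at 1541 and 1990 CPM, the inhibitory Fc receptor Fcgr2b at 1535 and 1842 CPM and the lectin Clec4g at 1204 and 1239 CPM. Over 14 pan-endothelial genes the median was -0.10, with 6 higher and 8 lower. The tight junction protein Cldn5 was the member that was at least 2-fold lower, at 763 and 334 CPM (-1.19, -1.28 to -1.11). Egfl7, a matrix protein that endothelium secretes, was at 1504 and 778 CPM (-0.95), while Pecam1 was at 613 and 647 CPM and the adherens junction cadherin Cdh5 at 973 and 904 CPM.

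Among 23 endothelial transcription factors, 8 were higher and 15 lower, a split near that of all genes (3522 and 5070), with a median of -0.12, and the 2 past 2-fold were both flow-responsive Krüppel-like factors. Klf2 (chr8:72319033-72321656) was at 777 CPM in the p16-LRTD library and 1769 CPM in the p16-Alb-LRTD library (log2 ratio 1.19, 1.13 to 1.24). Klf4 (chr4:55527143-55532466) was at 145 and 403 CPM (1.48, 1.36 to 1.60). Both were also higher in stellate-gated cells, Klf2 at 248 and 436 CPM and Klf4 at 95.9 and 207 CPM. Maf and Gata4, which are tied to the sinusoidal programme, were higher by less. Maf was at 2783 and 3794 CPM (0.45) and Gata4, which holds the sinusoidal state against capillarization, at 501 and 569 CPM (0.18). The vascular factor Sox18 was at 470.3 and 260.3 CPM (-0.85), the homeobox factors Meis1 at 297 and 179 CPM and Hhex at 84.6 and 48.7 CPM. Erg, Ets1 and Nr2f2, which hold general and venous endothelial identity, had log2 ratios between -0.07 and 0.19. The BMP and TGF-beta list had a median of 0.07, with 9 of 14 measured members higher and none 2-fold different. Its BMP targets Id1 (136 and 139 CPM) and Smad6 (262 and 280 CPM) had intervals that included 0.

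Genes known to respond to glucocorticoids were higher throughout. All 12 list members reached 10 CPM and all 12 were higher in p16-Alb-LRTD, 4 of them at least 2-fold, with a median of 0.78; in stellate-gated cells all 12 were higher as well, with a median of 0.81. Zbtb16 (chr9:48654297-48836222), a zinc finger transcription factor, had 10 UMIs (1.59 CPM) in the p16-LRTD library and was at 237 CPM in the other (log2 ratio 7.22, interval 6.34 to 8.29). In stellate-gated cells Zbtb16 was at 59.5 and 647 CPM, and the median carry-over would give 1.52 and 9.11 CPM in endothelial cells. The p16-LRTD level was thus near that of carry-over, while in p16-Alb-LRTD 71.5% of the endothelial cells had a UMI. Klf9, a Krüppel-like repressor, was at 103 and 344 CPM (1.74, 1.61 to 1.88). The mTOR inhibitor Ddit4 was at 11.3 and 33.0 CPM, and the clock gene Per1 at 19.2 and 38.5 CPM. Fkbp5, a co-chaperone of the glucocorticoid receptor, was at 172 and 284 CPM, Tsc22d3 (GILZ) at 116 and 224 CPM and the kinase Sgk1 at 782 and 1092 CPM. The receptor gene Nr3c1 itself was at 218 and 245 CPM.

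The promoter of Sgk1 is printed because it held the palindrome to which the glucocorticoid receptor binds. It is the RefSeq sequence of the 250 bases before the gene start on GRCm38.p6 (chr10:21993640-21993889, plus strand), with the match in capitals. The letters searched were GNACANNNTGTNC, a sequence that reads alike on both strands. It was present in 2 of the 11 list members with a promoter sequence (18.2%, Sgk1 and Mt1) and in 119 of 27025 genes (0.44%). A match describes the letters only, and binding was not measured.
Sgk1: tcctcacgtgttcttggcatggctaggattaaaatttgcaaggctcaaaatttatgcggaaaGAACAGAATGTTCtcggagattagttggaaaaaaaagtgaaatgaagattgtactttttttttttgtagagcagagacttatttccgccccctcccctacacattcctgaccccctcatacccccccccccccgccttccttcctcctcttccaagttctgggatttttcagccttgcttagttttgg

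Immediate early genes, which respond to signals and also to tissue dissociation, were higher in 11 of 12 cases, 2 of them at least 2-fold, with a median of 0.86 in endothelial and 0.56 in stellate-gated cells. Fos was at 577 CPM in the p16-LRTD library and 1196 CPM in the p16-Alb-LRTD library (1.05), Fosb at 212 and 463 CPM (1.13), and Egr1 at 236 and 458 CPM (0.96). Among 10 heat shock genes 8 were higher, with a median of 0.45 (0.75 in stellate-gated cells, over the 9 at the minimum there). The inducible chaperones Hspa1a (2.54 and 19.4 CPM) and Hspa1b (3.97 and 31.8 CPM) are near-identical copies, so their split is uncertain. The mitochondrial chaperones Hspd1 and Hspe1 were lower, at 112 and 79.3 CPM and at 165 and 108 CPM. In stellate-gated cells of the same libraries all 10 were higher.

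The LIFR and STAT3 axis, through which interleukin 6 family cytokines signal, had a median of 0.35 in endothelial cells and 0.06 in stellate-gated cells, with 9 of 13 measured members higher and 1 at least 2-fold. Lifr, the receptor for leukaemia inhibitory factor, was at 675 CPM in the p16-LRTD library and 1042 CPM in the p16-Alb-LRTD library (log2 ratio 0.63, 0.57 to 0.69). In stellate-gated cells Lifr was at 554 and 455 CPM. Il6st, the shared gp130 subunit, was at 711 and 1108 CPM (0.64), and Osmr, the oncostatin M receptor, at 91.1 and 164 CPM (0.85). The targets Socs3, a feedback inhibitor, and Cebpd, a transcription factor, were at 122 and 241 CPM and at 73.1 and 161 CPM. Not all targets went this way: Socs2 was at 66.5 and 39.5 CPM and Bcl3 at 44.3 and 33.9 CPM.

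Interferon-stimulated genes were higher in p16-Alb-LRTD. Of 20 members 19 were higher and 6 at least 2-fold, with a median of 0.68; in stellate-gated cells all 20 were higher, with a median of 0.81. Rsad2, the antiviral protein viperin, was at 66.6 CPM in the p16-LRTD library and 177 CPM in the p16-Alb-LRTD library (1.41, 1.23 to 1.59). In p16-LRTD 1 cell held 20.2% of its UMIs. The RNA-binding Ifit1 was at 25.5 and 55.7 CPM (1.13), Ifit2 at 63.6 and 142 CPM (1.16), and Irf7, a transcription factor that amplifies interferon responses, at 30.5 and 72.2 CPM (1.25). The ubiquitin-like modifier Isg15 was at 51.2 and 68.3 CPM (0.42). Bst2, tetherin, was the member that was lower, at 696 and 622 CPM (-0.16).

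Promoters of 3 of these genes are printed to show the element to which the interferon-activated factor ISGF3 and the IRF proteins bind. They are RefSeq sequences of the 250 bases before the gene start on GRCm38.p6: Rsad2 at chr12:26456453-26456702 (minus strand), Ifit1 at chr19:34640639-34640888 (plus strand) and Isg15 at chr4:156200819-156201068 (minus strand). Capitals mark each match to GAAANNGAAA on either strand, overlapping matches included. The letters were present in 8 of the 16 members with a promoter sequence (50%) and in 936 of 27025 genes (3.46%). The 8 members were Isg15, Ifit1, Ifit3, Rsad2, Stat2, Bst2, Gbp2 and Gbp3, among them the gene that was lower.
Rsad2: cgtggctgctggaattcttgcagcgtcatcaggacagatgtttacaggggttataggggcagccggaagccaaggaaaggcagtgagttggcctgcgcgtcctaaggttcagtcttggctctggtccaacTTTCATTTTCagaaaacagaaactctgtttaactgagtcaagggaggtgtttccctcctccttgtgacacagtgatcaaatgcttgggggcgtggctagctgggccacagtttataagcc
Ifit1: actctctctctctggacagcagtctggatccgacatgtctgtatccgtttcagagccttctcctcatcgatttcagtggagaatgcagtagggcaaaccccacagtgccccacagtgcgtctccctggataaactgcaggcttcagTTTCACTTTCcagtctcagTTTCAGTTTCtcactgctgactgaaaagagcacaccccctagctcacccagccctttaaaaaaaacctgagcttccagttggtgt
Isg15: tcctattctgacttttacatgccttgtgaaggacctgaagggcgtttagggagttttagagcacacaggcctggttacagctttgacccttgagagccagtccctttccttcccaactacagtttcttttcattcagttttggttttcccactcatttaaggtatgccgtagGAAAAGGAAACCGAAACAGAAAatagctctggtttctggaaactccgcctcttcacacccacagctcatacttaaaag

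Of 14 antigen presentation genes 13 reached 10 CPM, and 11 were higher and 2 lower in p16-Alb-LRTD, with a median of 0.39. The lower members included Tap2, which was higher with both other scalings. Class I genes named here were modestly higher. H2-K1 was at 1190 CPM in the p16-LRTD library and 1561 CPM in the p16-Alb-LRTD library (log2 ratio 0.39). H2-D1 was at 744 and 928 CPM (0.32), and B2m, their light chain, at 1522 and 1873 CPM (0.30). H2 genes are close paralogs, so reads may be split between them. The 4 class II genes were the members at least 2-fold higher, and they came from few cells. H2-Aa was at 18.1 and 87.3 CPM, but it was present in 2.99% and 4.51% of the cells, and 1 cell held 38.6% and 49.7% of its UMIs. H2-Eb1 was at 10.5 and 63.3 CPM, with 53% and 60.2% in 1 cell, and Cd74, the invariant chain, at 39.8 and 185 CPM. Macrophage-gated cells held H2-Aa at 744 and 1324 CPM and Cd74 at 1478 and 2759 CPM. Without cells that held at least 2 macrophage-marker UMIs per 10000, the log2 ratio of H2-Aa turned from 2.27 to -0.19 and that of H2-Eb1 from 2.60 to -2.34, while that of Cd74 was 0.34.

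Genes of cell division were lower in p16-Alb-LRTD. Of 18 members 10 reached 10 CPM, and all 10 were lower (Pcna not with the other scalings), 3 at least 2-fold, with a median of -0.78, beside -0.54 over 9 measured members in stellate-gated cells. The replication licensing factor Mcm2 was at 33.5 CPM in the p16-LRTD library and 11.2 CPM in the p16-Alb-LRTD library (-1.59, -2.08 to -1.12), and the mitotic kinase Cdk1 at 25.5 and 9.69 CPM. Below the minimum, Mki67 was at 12.7 and 1.70 CPM and Top2a at 15.2 and 0.73 CPM. Few cells carried them: Mki67 was present in 3.22% and 0.69% of the cells, with 42.5% of its p16-LRTD UMIs in 1 cell. Ccnd1, cyclin D1, was present in most cells and was at 1021 and 391 CPM (-1.39, -1.47 to -1.31), while in stellate-gated cells it was at 116 and 126 CPM.

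Cell-cycle inhibitors and p53 targets had no common direction, with 6 of 11 measured members higher, 5 lower and a median of 0.02. Cdkn2a, the locus of p16, was at 23.8 CPM in the p16-LRTD library and 15.3 CPM in the p16-Alb-LRTD library (log2 ratio -0.64, -1.09 to -0.21), beside 6.25 and 4.68 CPM in stellate-gated cells. The levels do not separate p16 from the Arf transcript of the same locus. Cdkn1a, p21, was at 92.6 and 111 CPM (0.26), Trp53 at 134 and 57.0 CPM (-1.24), and Cdkn1c, p57, at 15.2 and 51.6 CPM (1.76). Lmnb1, lamin B1, was at 24.1 and 8.0 CPM (-1.59). Gdf15, a stress-induced cytokine, was at 45.5 and 3.88 CPM, but 1 cell held 34.8% of the p16-LRTD UMIs and macrophage-gated cells were at 213 and 291 CPM.

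Adhesion molecules and chemokines went both ways: of 17 members 15 reached 10 CPM, 7 were higher and 8 lower, with a median of -0.27. Selp, on the cells described above, was at 2.54 CPM in the p16-LRTD library and 39.3 CPM in the p16-Alb-LRTD library (3.95, 3.21 to 4.79). Cxcl10, an interferon-induced chemokine for T cells, was at 116 and 311 CPM (1.43, 1.29 to 1.56), and also higher in stellate-gated cells, at 67.8 and 192 CPM. Vcam1 was at 131 and 223 CPM (0.77) and Icam2 at 179 and 96.0 CPM (-0.90). Ccl2, which draws monocytes, was at 69.2 and 20.1 CPM (-1.78), with 27.1% and 26.5% of its UMIs in 1 cell of each library, and at 249 and 333 CPM in stellate-gated cells.

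Whether or not they were in a list, the genes with the largest and the smallest ratio were named among 2563 eligible genes, out of 4359 with at least 50 CPM in a library. Eligible genes differed in the same direction in each zone-score tercile (defined below) and were not mainly stellate. The leading gene was Cyp26b1 (chr6:84571414-84593908), which encodes an enzyme that degrades retinoic acid. It was at 66.6 CPM in the p16-LRTD library and 950.5 CPM in the p16-Alb-LRTD library, 14.3-fold higher (log2 ratio 3.83, interval 3.69 to 3.98), and below 2 CPM in stellate-gated and macrophage-gated cells. The top cell held 5.24% and 1.96% of its UMIs, so the difference was spread over cells. Rasd1, a Ras-like protein first found as dexamethasone-induced, was at 25.7 and 161 CPM (2.65). Il13ra2, the decoy receptor for interleukin 13, was at 10.6 and 51.4 CPM (2.27), and Xdh, which makes uric acid, at 71.5 and 306 CPM (2.10). Bmper, a secreted regulator of BMP ligands, was at 21.4 and 72.2 CPM. Besides these the rule gave Cdh13, Thbd, Cdkn1c and 3 class II genes, all described above.

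At the lower end, Hmga2, an architectural chromatin protein of growing cells, was at 81.1 CPM in the p16-LRTD library and 8.0 CPM in the p16-Alb-LRTD library (-3.34, -3.90 to -2.83), and was present in 41.1% and 6.25% of the cells. Saa3, an acute-phase protein, was at 81.9 and 5.82 CPM, but 1 cell held 92.3% of the p16-LRTD UMIs; without the top cell of each library the log2 ratio was -1.38 in place of -3.81, and without cells rich in stellate markers it was -0.13. The ephrin Efna1 was at 152 and 55.7 CPM (-1.45), the sulfotransferase Chst2 at 195 and 72.5 CPM (-1.42) and the growth regulator Myc at 50.6 and 15.8 CPM (-1.68). Myc in stellate-gated cells was at 47.7 and 57.4 CPM. Exoc3l4 was at 124 and 26.2 CPM (-2.25), present in 74.3% and 29.9% of the cells, and Slc45a4 was at 58.4 and 9.69 CPM (-2.59). The list was completed by D5Ertd615e, by the noncoding Snhg12, and by Esm1, Pdgfb and Ccnd1.

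**Figure D3:**
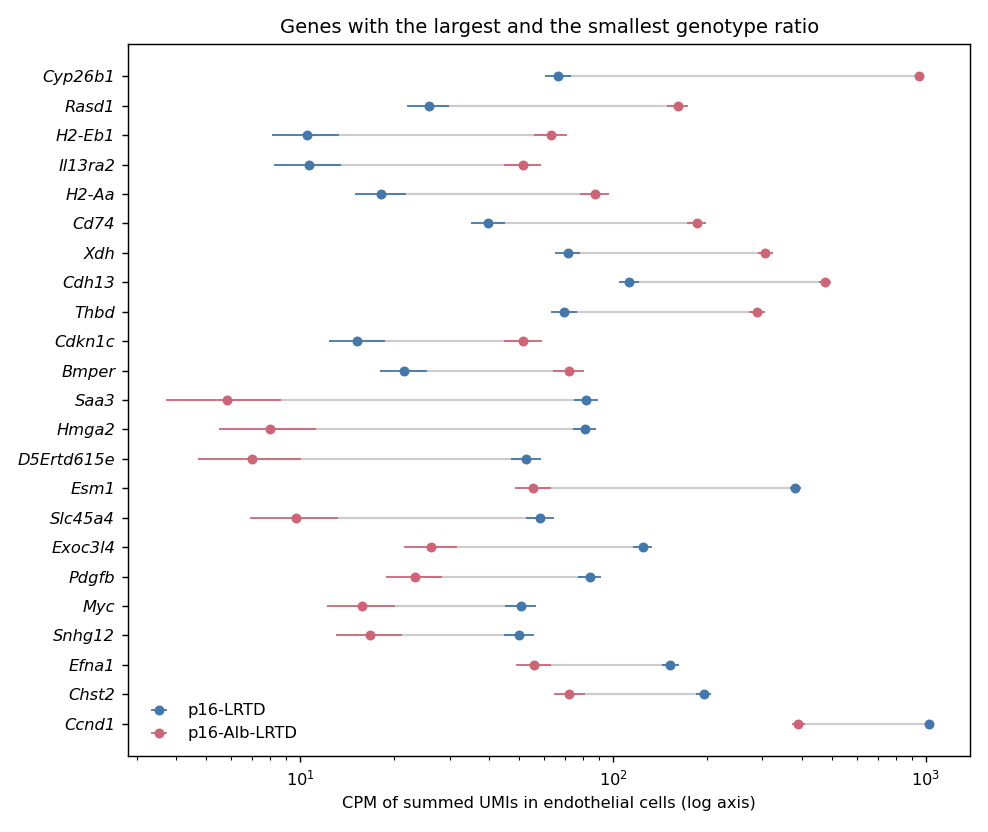
Level of 11 of the 12 genes with the largest and of the 12 with the smallest genotype ratio in endothelial cells, as CPM of summed UMIs on a log axis, in p16-LRTD (blue) and p16-Alb-LRTD (red), with 95% exact Poisson intervals as horizontal bars. Cyp26b1 lies at 66.6 and 950.5 CPM, and Hmga2 at 81.1 and 8.0 CPM; the interval of Saa3 does not show that 1 cell held 92.3% of its p16-LRTD UMIs.

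To place cells along the lobule within each library, every cell with at least 5000 UMIs was thinned to that depth and given a zone score, the mean log-normalised level of the pericentral list minus that of the periportal list. The score covered 423 and 288 cells, 12 shallower p16-LRTD cells being left out, with medians of -0.58 and -0.34. The cells were ranked by score and cut into 3 equal parts of 141 and 96 cells, from tercile 1 at the portal end to tercile 3 at the central end. The members of both lists were used in the score, so their gradients are descriptions. Wnt2 was at 18.2, 61.7 and 184 CPM over the terciles of p16-LRTD and at 84.4, 248 and 538 CPM in p16-Alb-LRTD, so that each tercile of p16-Alb-LRTD held more Wnt2 than the tercile of the same number in p16-LRTD. The terciles were cut within each library at different scores, tercile 3 starting at -0.33 and -0.05, and Wnt2 is part of the score, so equal numbers do not mean equal positions. Rspo3 was at 7.65, 4.88 and 39.6 CPM in p16-LRTD, and at 13.1, 8.69 and 174 CPM in p16-Alb-LRTD, where tercile 3 stood apart.

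Over 8120 genes outside both lists, 254 (3.13%) were at least 2-fold higher and 122 (1.5%) at least 2-fold lower in tercile 3 than in tercile 1 of p16-LRTD; in p16-Alb-LRTD the counts were 206 (2.54%) and 126 (1.55%). Of the 254 genes chosen in p16-LRTD, 197 had the same direction in p16-Alb-LRTD and 74 (29.1%) were also 2-fold higher there, with a median log2 of 0.56. Of the 122, 101 had the same direction and 30 (24.6%) were 2-fold lower, with a median of -0.62. The portal side was marked alike in both libraries by Slc45a4 (log2 -4.96 in p16-LRTD, -4.30 in p16-Alb-LRTD), Vegfc (-3.46, -2.89), Mecom (-3.28, -3.29) and Galnt15 (-2.23, -1.91). A small group of cells held many of these UMIs: the 32 p16-LRTD cells with at least 3 UMIs of Adgrg6, itself part of the score, held 572 Mecom and 250 Vegfc UMIs, and tercile 1 of that library held 838 and 455. Esm1 was lower toward tercile 3 too (-2.59, -1.28). On the central side, Flrt2, a guidance receptor (3.64, 2.41), and Sema3d, a secreted semaphorin (3.04, 2.72), were higher in tercile 3 of both libraries. Gpr182 was lower toward tercile 3 in both, by less than 2-fold (-0.79, -0.72).

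AC167229.1 (-2.02, -2.54) and Gm14226 (-1.94, -3.88) were also lower toward tercile 3 in both libraries, and Slc26a10 (3.54, 1.08) was higher, all 3 below 1 CPM in stellate-gated and macrophage-gated cells. Some other genes of the extremes are made by stellate cells or macrophages. In tercile 3 of p16-LRTD the stellate markers summed to 1631 CPM, against 446 and 453 CPM in terciles 1 and 2. There Col1a2 (4.38 in p16-LRTD, -0.12 in p16-Alb-LRTD) and Col3a1 (2.84, -0.21) were named. Stmn1 (3.13, 0.21) was named too, at 66.95 CPM in that tercile beside 74.45 CPM in stellate-gated cells of p16-LRTD. The source of its transcripts was not tested. Macrophage markers summed to 137, 571 and 333 CPM over the terciles of p16-LRTD and to 35.2, 751 and 204 CPM in p16-Alb-LRTD. The macrophage genes Cd5l (3.50, 1.54) and Cd74 (5.21, 5.43) were higher in tercile 3 than in tercile 1, but highest in tercile 2 of both libraries for Cd5l and of p16-Alb-LRTD for Cd74, and Lyz2 (-2.29, 3.21) and Lgals3 (-2.34, 2.92) took opposite signs in the 2 libraries. Cyp26b1, whose direction in the terciles was part of the rule that named it, was over the terciles at 64.7, 39.1 and 94.3 CPM in p16-LRTD and 774, 795 and 1269 CPM in p16-Alb-LRTD.

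**Figure D4:**
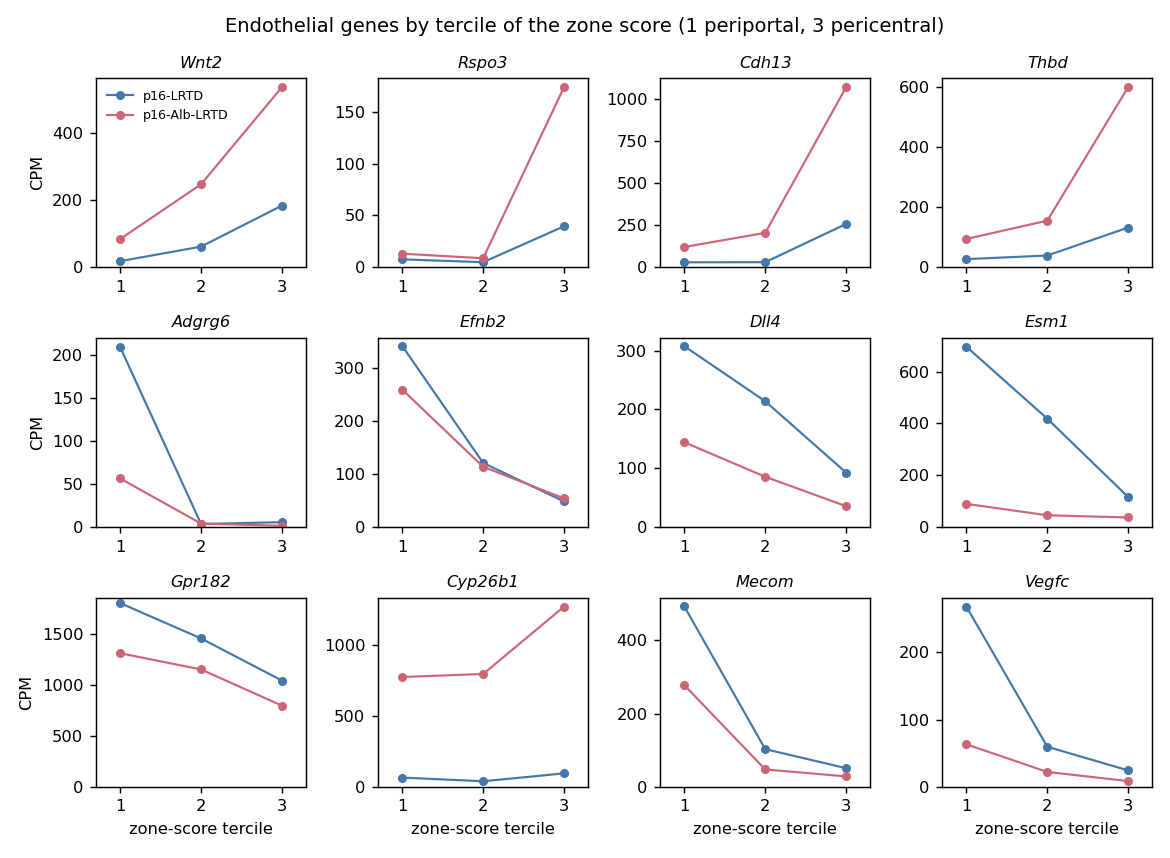
Level of 12 genes, as CPM of summed UMIs, in terciles 1 (periportal) to 3 (pericentral) of the zone score in endothelial cells of p16-LRTD (blue, 141 cells a tercile) and p16-Alb-LRTD (red, 96 cells a tercile); Wnt2, Rspo3, Cdh13, Thbd, Adgrg6, Efnb2 and Dll4 are part of the score. Terciles were cut within each library at different scores; Wnt2 is higher in p16-Alb-LRTD at each tercile number, Rspo3 reaches 174 CPM only in tercile 3 of p16-Alb-LRTD, and Mecom and Vegfc are highest in tercile 1 of both libraries.

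The share of cells with a UMI was read at equal depth, 5000 UMIs per cell, and beside stellate-gated cells thinned alike. Wnt2 was present in 25.8% of the endothelial cells of p16-LRTD and 60.4% of those of p16-Alb-LRTD, with 0.11% and 0.26% of the stellate-gated cells. Thbd was present in 21.8% and 51.4%, and Cdh13 in 16.3% and 46.2%. For these 3 genes the difference was thus spread over many cells. Cyp26b1 was present in 18.9% and 81.3% of the endothelial cells, and in 0.30% and 0.93% of the stellate-gated cells. Zbtb16 was present in 0.71% and 56.9%, beside 21.8% and 91.2% of the stellate-gated cells. In the other direction, Esm1 was present in 44.0% and 13.2%, Nrarp in 40.0% and 12.8%, and Dll4 in 56.0% and 31.2%. The share with Cdkn2a was 11.4% and 4.86%, beside 2.86% and 2.37% of the stellate-gated cells. Gpr182 stayed near complete at 98.6% and 95.8%, and Lyve1 was present in 90.8% and 76.7%. Without thinning, Wnt2 was present in 40.5% and 76.4% of the cells, the same order.

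**Figure D5:**
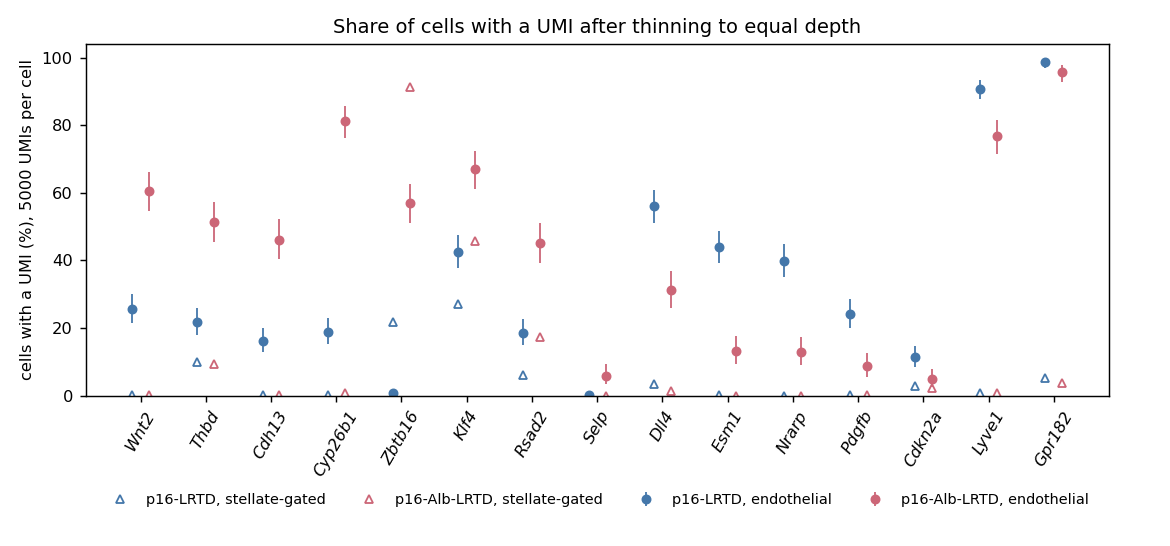
Share of cells with at least 1 UMI of each gene, in percent, after thinning every cell to 5000 UMIs, in endothelial cells of p16-LRTD (blue circles, 423 cells) and p16-Alb-LRTD (red circles, 288 cells) with 95% exact binomial intervals, and in stellate-gated cells (triangles). Cyp26b1 goes from 18.9% to 81.3% and Esm1 from 44.0% to 13.2%, both with under 1% in stellate-gated cells, while Zbtb16 is at 91.2% in stellate-gated cells of p16-Alb-LRTD.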

How the data were processed

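Droplet single-cell RNA libraries, 1 per genotype, were processed by the authors with Cell Ranger 7.0.1 on mm10 with a tdTomato sequence added, and deposited as filtered UMI counts (31054 features, not normalized); the deposited counts were used as such. Kept barcodes followed the study's limits for stellate cells. No doublet caller was run; cells above the upper limits or past both gates were left out. Counts were summed per library and scaled to CPM. Levels have exact Poisson intervals, ratios exact conditional binomial intervals and shares Clopper-Pearson intervals, all 95% and covering counting error only. Cell members, gene lists and named-gene rules were chosen with earlier results of these data known. Named genes were the list members and the 12 genes highest and 12 lowest by ratio that reached 50 CPM in either library, kept 1 direction over the 3 zone-score terciles and had at least 0.5 times the stellate level where higher; mitochondrial, ribosomal, haemoglobin, hepatocyte-list, Y-linked genes and Xist were left out. For the zone score the 10 highest and 10 lowest tercile ratios at 50 CPM were taken. Coordinates are from GENCODE vM21, which matched 30934 features. Counts for 8592 genes, 200 of them changed, were simulated as Poisson counts, which the intervals assume. On these the intervals covered the true ratio for 95.6% of genes, and all 4-fold changes passed 2-fold. This checks the calculation only, since the simulation left out UMIs gathered in single cells. Alternatives covered the gates, the limits on cells, the minimum level, scaling (TMM, median of ratios), thinning and cells with other markers. Python 3.11.15, numpy 2.4.6, scipy 1.17.1, pandas 2.3.3, matplotlib 3.10.9, R 4.3.3 and edgeR 4.0.16 (TMM only) were used. The deposited files held 2 libraries, each with its own label. Of the genes chosen by these rules, 2 are not reported here.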

Additional observations from a re-analysis of the deposited data

Results flagged for a closer look

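Among the list members and named genes, 6 had a log2 ratio past 0.5 in endothelial cells and past 0.25 with the opposite sign in stellate-gated cells, at a mean of at least 50 CPM there. These differences were not tested, and further genes took opposite signs by less or at lower levels. Adam23, an adhesion protein, had a log2 ratio of 1.19 in endothelial and -0.73 in stellate-gated cells. Bmp2 had 0.60 and -0.30. Lifr, the receptor of leukaemia inhibitory factor, had 0.63 and -0.29. Ccl2 had -1.78 and 0.42, with 27.1% and 26.5% of its endothelial UMIs in 1 cell of each library. Myc had -1.68 and 0.27, and Hes1 had -0.96 and 0.76.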

How the results depend on the processing

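Of 180 recomputed summary values, 158 stayed within the limit set for each kind of value and 22 moved. Of 288 recomputed ratios of named genes, 279 kept direction and 2-fold size, 6 kept direction but came under 2-fold and 3 reversed. Some settings differed little from the main one, which limits what these totals show. Each scaling shifted every log2 ratio by the same constant, and the gate of 16 per 10000 kept 433 and 286 cells. No paired analysis was possible because there was 1 library of either genotype. With no minimum level 998 genes were at least 2-fold higher and 1158 lower, and with a minimum of 30 CPM 84 and 70. The sinusoidal identity median was 0.063 with TMM and 0.076 with median-of-ratios scaling. The capillary and basement membrane median was -0.64 at 30 CPM, the pericentral median 1.295 with a mitochondrial limit of 10%, and the immediate early median 0.757 without upper limits. H2-Eb1 reversed to -0.05 in cells with 10000 to 30000 UMIs and to -2.34 without cells with macrophage markers, where H2-Aa reversed to -0.19. The ratio of Saa3 came under 2-fold with a gate of 16 per 10000 (-0.12) and without upper limits (-0.49). The endothelial share was 4.10% and 2.76% with a stellate gate of 5 per 10000, and 5.55% and 4.48% with the mitochondrial limit of 10%. With the cells cut into 4 parts in place of 3, 55 genes lower in the top part of p16-LRTD were also 2-fold lower in p16-Alb-LRTD. The share with Wnt2 was 18.6% and 48.3% after thinning to 3000 UMIs and 40.5% and 76.4% without thinning, and that with Dll4 was 40.2% and 21.2%, and 77.2% and 55.9%. The cause of these shifts was not tested. Leaving out cells rich in stellate markers (13 and 3 cells) or the top cell of a gene was chosen after seeing the data; the ratio of Saa3 was then -0.13 and -1.38. Depth limits low genes: the median counting interval spanned 0.27 log2 on each side, and 1 library per genotype leaves the spread between mice unmeasured.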

Other observations

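Genes of vascular tone and caveolae had a median log2 ratio of 0.22, with 8 of 12 measured members higher in p16-Alb-LRTD and 4 lower, of which Edn1, described above, was at least 2-fold lower. Nos3, the endothelial nitric oxide synthase, was level at 113 and 114 CPM. Ednrb, the endothelin B receptor, was at 69.3 and 105 CPM, beside 829 and 971 CPM in stellate-gated cells, and Calcrl, the adrenomedullin receptor, at 656 and 782 CPM. Of 12 coagulation genes 6 reached 10 CPM and 5 of these were higher, with a median of 0.49. Pros1, protein S, a cofactor of the protein C that Thbd activates, was at 300.3 and 399 CPM, and the ectonucleotidase Entpd1 at 18.1 and 32.0 CPM, with 445 and 668 CPM in macrophage-gated cells.

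Of 11 measured lipid handling genes 9 were lower, 3 of them at least 2-fold, with a median of -0.25, beside 5070 lower of all 8592 genes tested. The nuclear receptor Pparg was at 65.4 and 31.0 CPM (log2 ratio -1.08). Lpl, lipoprotein lipase, was at 56.2 and 22.1 CPM, but 1 cell held 26.3% and 47.3% of its UMIs and macrophage-gated cells were at 2136 and 1446 CPM. Its endothelial anchor Gpihbp1 was at 1077 and 823 CPM and the fatty acid transporter Cd36 at 1082 and 943 CPM. The cholesterol exporter Abca1 was at 94.6 and 152 CPM (0.69).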
